A study of Olea europaea with 12 samples.

Results

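The genes LOC111384066 and LOC111399394 of the olive, both annotated as bark storage protein A-like, were followed through the ripening of the fruit. They are 2 of the 51008 genes in the deposited expression table. Both were chosen by gene symbol with their measured levels in these same libraries already known. Their levels and age differences are therefore given as a description, with no test. RNA was taken from fruit flesh (the mesocarp, where olive oil is stored) of Olea europaea cultivar Koroneiki, a Greek oil olive grown in 1 field in Western Greece. Fruit ages are given in weeks after flowering (WAF) and were 17, 21, 26 and 30. Each age had 3 libraries, A, B and C, which makes 12 in all. All libraries share the cultivar, the field and the growing season, and fruits alike in size, shape and colour were taken at each age. The library names carry the months Sep, Oct, Nov and Dec for 17, 21, 26 and 30 WAF. Each age thus had its own month, and fruit age and time of year cannot be told apart. Whether the 3 libraries of an age came from separate trees is not stated, so SDs and p-values measure the spread among the libraries at hand, part of which may be technical.

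Bark storage proteins are vacuolar proteins best known from poplar, where they build up in bark and wood in autumn as a nitrogen reserve and are broken down in spring to feed new growth. In poplar their genes respond to day length, to nitrogen supply and to wounding. By sequence they belong to the superfamily of nucleoside phosphorylases and nucleosidases, and whether they have an enzyme activity in plants is a separate matter from their storage role. The name of an olive gene rests on resemblance and does not establish that its protein stores nitrogen in the fruit.

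The annotation of both genes was nearly the same. Each carried the process term "nucleoside metabolic process" and the function term "catalytic activity". Each had its closest protein match in a bark storage protein A of the sacred lotus, Nelumbo nucifera, and LOC111399394 also matched the one of sesame. LOC111384066 is listed with 1 transcript, a RefSeq model marked as a partial mRNA. LOC111399394 is listed with 1 RefSeq transcript and 4 transcripts assembled by the submitters. The reference gene table for the wild olive, O. europaea var. sylvestris, places LOC111399394 on a chromosome and leaves LOC111384066 unplaced. Sequences of these genes were not analysed here, so their identity to each other was not measured. Closely related copies can share fragments, and each level below is uncertain to the extent that the estimation of values divided such fragments between the copies.

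The values are FPKM as the authors deposited them, a fragment number corrected for the length of the transcript and the size of the library. The summed FPKM of a library ranged from 790578 to 845585. The number of fragments behind a value is unknown. Pearson correlations of log2(FPKM + 1) across genes were 0.992 to 0.996 over the 12 pairs of libraries of the same age, and 0.888 to 0.972 over the 54 pairs of different ages. Genes are not independent replicates, so these correlations only describe the libraries. In whole tissue, a change in the number of cells of a type and a change in RNA per cell cannot be told apart.

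LOC111384066 was the more abundant of the pair. It stood at 5347, 5542 and 5360 FPKM in libraries A, B and C at 17 WAF. At 21 WAF it stood at 42656, 41570 and 41180 FPKM, the highest values of this gene at any age. At 26 WAF it stood at 17641, 17734 and 17771 FPKM, and at 30 WAF at 4547, 4505 and 4566 FPKM. The ages did not overlap in any pair: every library at 21 WAF lay above every library at 26 WAF, these lay above 17 WAF, and 17 WAF lay above 30 WAF. The means were 5417 ± 109.1 FPKM at 17 WAF, then 41802 ± 765 at 21 WAF, then 17715 ± 67.1 at 26 WAF and lastly 4540 ± 31.2 at 30 WAF (SD, n = 3 each). The spread within an age was 0.379 to 2.01% of the mean.

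LOC111399394 followed the same order of ages at a lower level. It stood at 2202, 2283 and 2323 FPKM in libraries A, B and C at 17 WAF. At 21 WAF it stood at 17930, 17427 and 17255 FPKM. Its libraries at 26 WAF held 7464, 7118 and 7595 FPKM, and those at 30 WAF 1746, 1732 and 1694 FPKM. Again no ages overlapped, with 21 WAF highest, then 26, 17 and 30 WAF. The means were 2269 ± 61.2 FPKM at 17 WAF, then 17537 ± 351 at 21 WAF, then 7392 ± 247 at 26 WAF and lastly 1724 ± 26.6 at 30 WAF (SD, n = 3 each). The spread within an age was 1.54 to 3.34% of the mean.

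**Figure D1:**
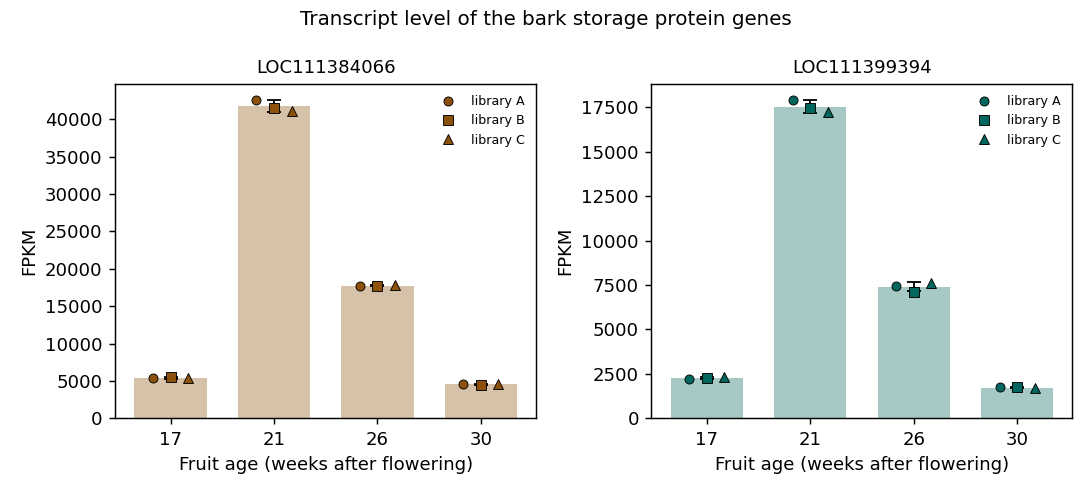
FPKM (linear axis from 0) of LOC111384066 (left) and LOC111399394 (right) at each fruit age in weeks after flowering. Bars are means, error bars are the SD of 3 libraries, and points are the single libraries A, B and C. Both genes are highest at 21 WAF, at 41802 and 17537 FPKM, and lowest at 30 WAF, at 4540 and 1724 FPKM.

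Among neighbouring ages, both genes differed most between 21 and 17 WAF. LOC111384066 was 7.72-fold higher at 21 than at 17 WAF, a log2 difference of 2.95 (SD of the difference 0.039). LOC111399394 was 7.73-fold higher, also a log2 difference of 2.95 (SD 0.048). Of the 26131 genes that passed a filter on low values, which both genes passed, 10 had a larger positive log2 difference than LOC111384066 and 9 a larger one than LOC111399394. Over the same interval limma called 22.2% of tested genes higher and 35.9% lower, at a Benjamini-Hochberg adjusted p threshold of 0.05, and the median of all tested genes was -0.068 on the log2 scale. In FPKM, the difference between 21 and 17 WAF was 36385 for LOC111384066 and 15268 for LOC111399394, the largest and second largest of all genes in the table. The next largest was the 6281 FPKM of LOC111404214, a beta-glucosidase gene. Together both bark storage genes held 31.7% of the FPKM gained over all genes that were higher at 21 than at 17 WAF.

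**Figure D2:**
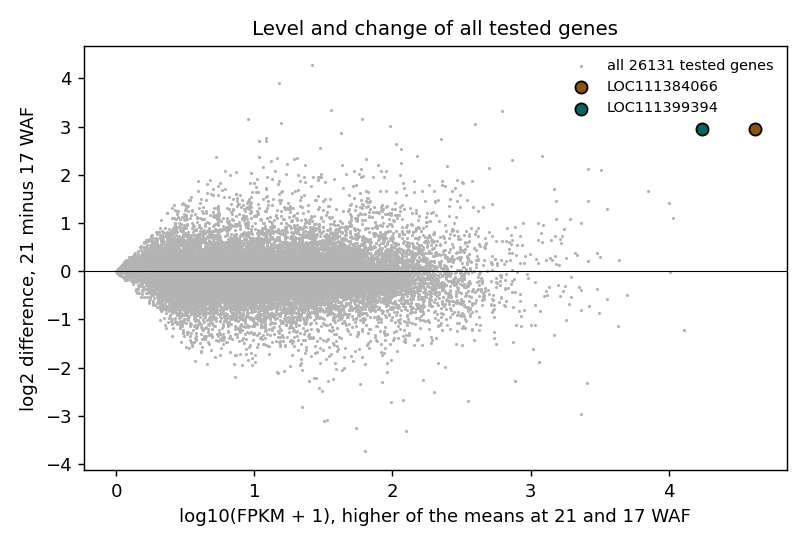
Log2 difference of each of the 26131 tested genes between 21 and 17 WAF (vertical axis, log2(FPKM + 1) scale) against the higher of its means at both ages (horizontal axis, log10(FPKM + 1)). Grey points are all tested genes, and large points are LOC111384066 and LOC111399394, which stand at the far right at a log2 difference of 2.95 each.

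From 21 WAF on, both genes were lower at each later age. At 26 WAF the level of LOC111384066 was 42.4% of that at 21 WAF (log2 difference -1.24, SD 0.027), and that of LOC111399394 was 42.1% (log2 difference -1.25, SD 0.056). At 30 WAF LOC111384066 was at 25.6% of its level at 26 WAF (log2 difference -1.96, SD 0.011), and LOC111399394 was at 23.3% (log2 difference -2.10, SD 0.053). Spread over the weeks between samplings, LOC111384066 changed by 0.74 per week on the log2 scale between 17 and 21 WAF, by -0.25 between 21 and 26 WAF and by -0.49 between 26 and 30 WAF. The matching values of LOC111399394 were 0.74, -0.25 and -0.52 per week. Both genes held 29.8% of the FPKM lost over all genes that were lower at 26 than at 21 WAF, and 15.1% of that lost between 26 and 30 WAF. Between 26 and 21 WAF limma called 23.2% of all tested genes higher and 32.9% lower. Between 30 and 26 WAF it called 42.0% higher and 24.3% lower.

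At the last age both genes stood below their level at the first. LOC111384066 was at 4540 FPKM at 30 WAF and 5417 FPKM at 17 WAF, 16.2% lower (log2 difference -0.25, SD 0.030). LOC111399394 was at 1724 FPKM at 30 WAF and 2269 FPKM at 17 WAF, 24% lower (log2 difference -0.40, SD 0.045). These differences are small beside those of many genes, as 8783 and 6543 of the 26131 tested genes had a more negative difference. The median of all tested genes between 30 and 17 WAF was -0.033 on the log2 scale.

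The share of the summed FPKM held by both genes together lay between 0.955 and 0.973% at 17 WAF and between 7.09 and 7.21% at 21 WAF. It lay between 3.05 and 3.08% at 26 WAF and between 0.740 and 0.748% at 30 WAF. This is a share of length-scaled values and not of sequenced fragments. At 21 WAF the pair held as much FPKM as the 39208 to 39497 least abundant genes of a library together. The same number was 28901 to 29113 at 17 WAF and 28468 to 28561 at 30 WAF. It is large at every age because only 26131 of the 51008 genes passed the filter on low values. The FPKM of all other genes summed to between 783029 and 796402 at 17 WAF and between 764696 and 779818 at 21 WAF. That sum lay between 781022 and 799633 at 26 WAF and between 834850 and 839324 at 30 WAF. LOC111384066 had rank 3 of all genes in each library at 17 WAF, rank 1 in each library at 21 and 26 WAF, and rank 6 or 7 at 30 WAF. LOC111399394 had a rank from 18 to 21 at 17 WAF, rank 2 in each library at 21 WAF and rank 4 in each library at 26 WAF. At 30 WAF its rank was 32 to 35. Very abundant genes peaked at different ages: of the 94 genes, the pair included, with a mean of at least 1000 FPKM at some age, 20 were highest at 17 WAF and 21 at 21 WAF, while 19 were highest at 26 WAF and 34 at 30 WAF.

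**Figure D3:**
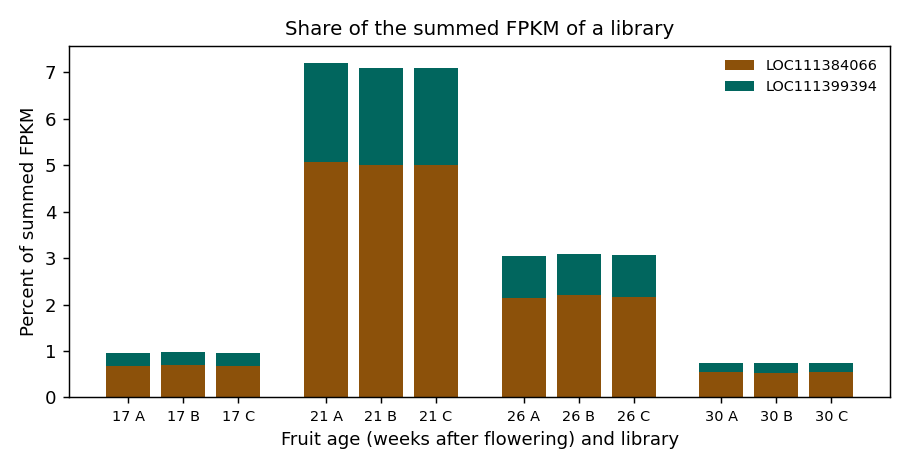
Percent of the summed FPKM of each library held by LOC111384066 (lower part of the bar) and LOC111399394 (upper part), for libraries A, B and C at each fruit age in weeks after flowering. The stacked bars reach 7.09 to 7.21% at 21 WAF and stay under 1% at 17 and 30 WAF.

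The ratio of LOC111384066 to LOC111399394 was nearly constant over the first 3 ages. It was 2.39 ± 0.069 at 17 WAF, 2.38 ± 0.0040 at 21 WAF and 2.40 ± 0.082 at 26 WAF (SD, n = 3 each), and these ages overlapped. At 30 WAF it was 2.63 ± 0.053, with libraries from 2.60 to 2.70, above the range of 2.31 to 2.49 over the other 9 libraries. LOC111399394 thus stood lower relative to LOC111384066 at 30 WAF than before. The ratio compares levels per transcript length, and one of both models is marked as partial, so its size depends on model length. A fixed model length would not alter its course over the ages. Whether that course reflects a change in the transcripts in use, or in the division of shared fragments, was not tested. Across the 12 libraries both genes had a Pearson r of 0.999 on log2(FPKM + 1) and a Spearman rank correlation of 0.965. The points of an age share their tissue and library preparation, and shared fragments between copies would raise such a value. Within an age the 2 genes deviated from their means to the same side in 7 of 12 libraries. At 21 WAF library A was the highest and library C the lowest for both.

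A further 5 genes of the table are described as bark storage proteins, by their own description or by their closest protein match, and all 5 passed the filter. None was chosen for its level, so they were tested. By the moderated F test of limma over the 4 ages, 4 of the 5 changed, a share near that of all tested genes, of which 89.9% did. Their levels were far below those of LOC111384066 and LOC111399394, with no library above 244 FPKM.

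The gene BGI_novel_G008993, assembled by the submitters with no reference gene ID, had its closest match in bark storage protein A of grapevine, Vitis vinifera. It stood at 31.1, 33.1 and 32.9 FPKM at 17 WAF, 220, 208 and 244 FPKM at 21 WAF, 91.5, 94.6 and 100.9 FPKM at 26 WAF, and 29.6, 33.0 and 28.9 FPKM at 30 WAF. The ages 21 and 26 WAF stood apart from all others, while 17 and 30 WAF overlapped. It rose between 17 and 21 WAF (log2 change 2.75, SE 0.062, limma adjusted p = 2.36e-12). It fell between 21 and 26 WAF (log2 change -1.22, SE 0.062, adjusted p = 4.77e-09) and between 26 and 30 WAF (log2 change -1.62, SE 0.062, adjusted p = 1.11e-10). Between 30 and 17 WAF it did not pass (adjusted p = 0.234), but it did with each library scaled to the same sum (adjusted p = 0.0339) and with the abundant pair left out of that sum (adjusted p = 0.0314). The summed level of LOC111384066 and LOC111399394 was 206 to 266 times its level, by age. Whether fragments of the abundant pair contributed to its values was not tested.

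LOC111377194, described as a 5'-methylthioadenosine/S-adenosylhomocysteine nucleosidase, stood at 14.9 ± 1.36 FPKM at 17 WAF, then 21.6 ± 0.546 at 21 WAF, then 10.5 ± 0.619 at 26 WAF and lastly 15.2 ± 0.365 at 30 WAF (SD, n = 3 each). Nucleosidases of this kind recycle by-products of methionine metabolism and share the fold of bark storage proteins. It rose by 0.51 on the log2 scale between 17 and 21 WAF (SE 0.059, limma adjusted p = 8.25e-06). It fell by 0.98 between 21 and 26 WAF (SE 0.059, adjusted p = 2.66e-08) and rose by 0.50 between 26 and 30 WAF (SE 0.059, adjusted p = 8.64e-06), an interval in which the abundant pair stood lower at the later age.

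LOC111377195, uncharacterized by its own description and matched to the same grapevine protein, stood at 13.2 ± 0.104 FPKM at 17 WAF, then 19.4 ± 1.70 at 21 WAF, then 10.02 ± 0.688 at 26 WAF and lastly 9.48 ± 0.355 at 30 WAF. It rose by 0.53 on the log2 scale between 17 and 21 WAF (SE 0.061, limma adjusted p = 9.0e-06) and fell by 0.89 between 21 and 26 WAF (SE 0.061, adjusted p = 9.06e-08). Its change between 26 and 30 WAF did not pass (adjusted p = 0.325), but it did with median-of-ratios scaling (0.0245).

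The remaining pair carries the name bark storage protein A-like itself and was close to the filter. LOC111405691 stood at 1.66 ± 0.087 FPKM at 17 WAF, then 1.88 ± 0.393 at 21 WAF, then 2.27 ± 0.099 at 26 WAF and lastly 2.97 ± 0.272 at 30 WAF. It rose over the whole period (log2 change between 30 and 17 WAF 0.57, SE 0.096, limma adjusted p = 0.000125), a comparison in which 34.9% of tested genes were higher and 38.9% lower. Its protein matches include a cell division cycle 20 protein, so its values may hold more than 1 kind of transcript. LOC111387434, a partial model, stood at 1.12 ± 0.040 FPKM at 17 WAF, then 1.64 ± 0.460 at 21 WAF, then 1.71 ± 0.284 at 26 WAF and lastly 1.34 ± 0.185 at 30 WAF. It missed the threshold over the 4 ages (adjusted p = 0.0542), and its change between 17 and 21 WAF (log2 change 0.30, SE 0.122, adjusted p = 0.0478) did not hold. It ended without library A, B or C at 17 WAF, A or C at 21 WAF, B at 26 WAF, or A or B at 30 WAF (adjusted p = 0.0502 to 0.215), with no filter (0.0945), with each library scaled to the same sum (0.0696) and with only both ages fitted (0.0667). Of the 7 bark storage genes, LOC111384066, LOC111399394, BGI_novel_G008993, LOC111377194 and LOC111377195 thus had their highest mean at 21 WAF, at levels and with differences that varied widely.

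**Figure D4:**
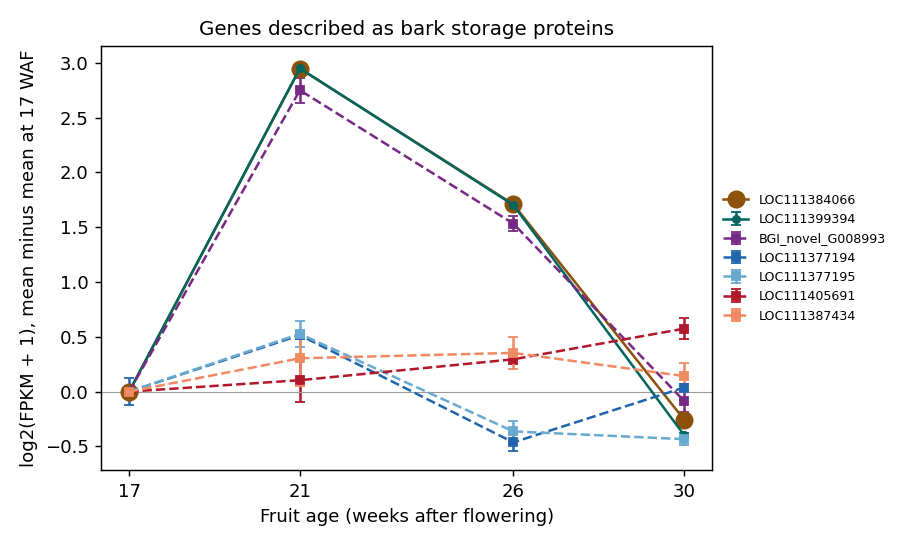
Mean of log2(FPKM + 1) minus the mean at 17 WAF for all 7 genes described as bark storage proteins, against fruit age in weeks after flowering. Error bars are the SD of 3 libraries. Solid lines are LOC111384066 and LOC111399394, which coincide up to 26 WAF. The dashed line of BGI_novel_G008993 runs just below them, and the other 4 genes stay near their level at 17 WAF, the largest difference upward being 0.57 (LOC111405691 at 30 WAF).

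The described genes whose course was most like that of the abundant pair were named by Pearson r of log2(FPKM + 1) over the 12 libraries, among 9796 genes with a mean of at least 10 FPKM. Since libraries of one age lie close together, such an r rests mainly on 4 age means. For LOC111384066 the 5 closest had r of 0.992 to 0.994. They were LOC111401369 (DOG1-like 4), LOC111377989 (magnesium-chelatase subunit ChlH, an enzyme of chlorophyll synthesis), LOC111406350 (a WAT1-related protein), LOC111404235 (RESPONSE TO LOW SULFUR 3) and LOC111365956 (transcription initiation factor IIB-2). For LOC111399394 the 5 closest had r of 0.990 to 0.997. They were LOC111377989, LOC111365956, LOC111404235, LOC111383778 (magnesium transporter MRS2-3) and LOC111366056 (tubby-like F-box protein 3).

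These genes matched the course but not the size. LOC111404235 had the largest log2 difference between 21 and 17 WAF among them, 1.64. It stood at 33.3 ± 1.01 FPKM at 17 WAF, then 105.8 ± 7.67 at 21 WAF, then 63.2 ± 3.95 at 26 WAF and lastly 32.1 ± 2.61 at 30 WAF. LOC111377989 stood at 46.6 ± 0.416 FPKM at 17 WAF, then 77.5 ± 1.45 at 21 WAF, then 62.3 ± 0.333 at 26 WAF and lastly 41.8 ± 1.05 at 30 WAF. With Spearman's rank correlation in place of r, 0 of the 5 named genes stayed among the 5 closest for either gene, so the names depend on the measure of likeness. In all, 83 of the 9796 genes had an r above 0.95 with LOC111384066, and 88 with LOC111399394.

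Genes around the storage of nitrogen were counted in lists made by patterns in the gene descriptions. Each count is set beside the share of all tested genes that limma called. Between 17 and 21 WAF that was 22.2% higher and 35.9% lower, with a median of -0.068, and between 21 and 26 WAF 23.2% higher and 32.9% lower, with a median of -0.056. Of 25 tested nitrogen assimilation genes, whose enzymes build nitrogen into amino acids, 7 (28%) rose, 11 (44%) fell and 7 did not pass between 17 and 21 WAF, with a median of -0.14, which is close to the shares of all genes. The most abundant, the cytosolic glutamine synthetase gene LOC111408686, was at 908 ± 44.5 FPKM at 21 WAF and 938 ± 18.8 at 17 WAF (limma adjusted p = 0.334, and 0.0131 with each library scaled to the same sum). Asparagine synthetase (LOC111403662), which makes an amide that carries nitrogen, rose to 732 ± 1.77 FPKM at 21 WAF, against 565 ± 5.51 at 17 WAF (log2 change 0.37, SE 0.024, adjusted p = 3.23e-08). Another cytosolic glutamine synthetase gene, LOC111397164, had the largest fall of the list, to 237 ± 11.3 FPKM at 21 WAF, against 377 ± 16.0 at 17 WAF (log2 change -0.67, SE 0.042, adjusted p = 2.88e-08).

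Between 21 and 26 WAF, when the abundant pair stood lower at the later age, 13 (52%) of the 25 nitrogen assimilation genes rose, 4 (16%) fell and 8 did not pass, with a median of 0.34, beside 23.2% higher and 32.9% lower over all genes. The number that fell was 2 without library C at 21 WAF, without library C at 26 WAF or with median-of-ratios scaling. LOC111408686 rose to 1310 ± 66.2 FPKM at 26 WAF, against 908 ± 44.5 at 21 WAF (log2 change 0.53, SE 0.041, limma adjusted p = 2.41e-07). LOC111403662 rose to 1065 ± 21.0 FPKM at 26 WAF, against 732 ± 1.77 at 21 WAF (log2 change 0.54, SE 0.024, adjusted p = 1.45e-09). The NADH glutamate synthase gene LOC111405628 had the largest rise of the list, to 53.0 ± 0.935 FPKM at 26 WAF, against 25.4 ± 0.739 at 21 WAF (log2 change 1.03, SE 0.032, adjusted p = 5.74e-11).

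Of 52 tested genes of amino acid and peptide transport, 26 (50%) rose, 14 (26.9%) fell and 12 did not pass between 17 and 21 WAF, with a median of 0.17, beside 22.2% higher and 35.9% lower over all genes. The number that fell was 9 without library C at 17 WAF. The cationic amino acid transporter gene LOC111396839 had the largest rise of the genes with at least 5 FPKM, to 103 ± 3.15 FPKM at 21 WAF, against 38.1 ± 1.06 at 17 WAF (log2 change 1.42, SE 0.032, limma adjusted p = 2.26e-12). Between 21 and 26 WAF 16 (30.8%) rose, 17 (32.7%) fell and 19 did not pass, with a median of 0.029, beside 23.2% and 32.9% over all genes. LOC111409132, described as amino acid permease 3, fell to 42.4 ± 0.615 FPKM at 26 WAF, against 90.9 ± 4.04 at 21 WAF (log2 change -1.08, SE 0.036, adjusted p = 9.99e-11).

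Vacuolar proteases are enzymes that can break down stored protein, and 56 of the 89 genes in the list made for them were tested. Membership rests on the gene description, and whether each protein lies in the vacuole was not tested. Between 17 and 21 WAF 21 (37.5%) rose, 19 (33.9%) fell and 16 did not pass (median 0.018), beside 22.2% higher and 35.9% lower over all genes. Between 21 and 26 WAF 30 (53.6%) rose, 11 (19.6%) fell and 15 did not pass (median 0.16), beside 23.2% and 32.9%. The last number that fell was 6 without library C at 21 WAF and 7 with median-of-ratios scaling. Levels within the list differed widely. The most abundant gene, cysteine proteinase 3 (LOC111385176), rose to 1753 ± 37.5 FPKM at 21 WAF, against 958 ± 23.6 at 17 WAF (log2 change 0.87, SE 0.028, limma adjusted p = 4.48e-11). LOC111394575, described as cysteine protease RD19B, had the largest rise between 21 and 26 WAF, to 12.6 ± 0.597 FPKM at 26 WAF, against 0.637 ± 0.072 at 21 WAF (log2 change 3.06, SE 0.083, adjusted p = 1.4e-11). Of 20 tested amino acid breakdown genes, 5 (25%) rose and 3 (15%) fell between 17 and 21 WAF (median -0.015), and 5 (25%) rose and 5 (25%) fell between 21 and 26 WAF (median 0.041). Each of the last 2 counts was 3 without library C at 21 WAF, and the number that fell was 3 without library A or library B at 26 WAF. The number that fell was also 3 with median-of-ratios scaling and with no filter. The number that rose was also 3 with the abundant pair left out of the scaling sum.

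**Figure D5:**
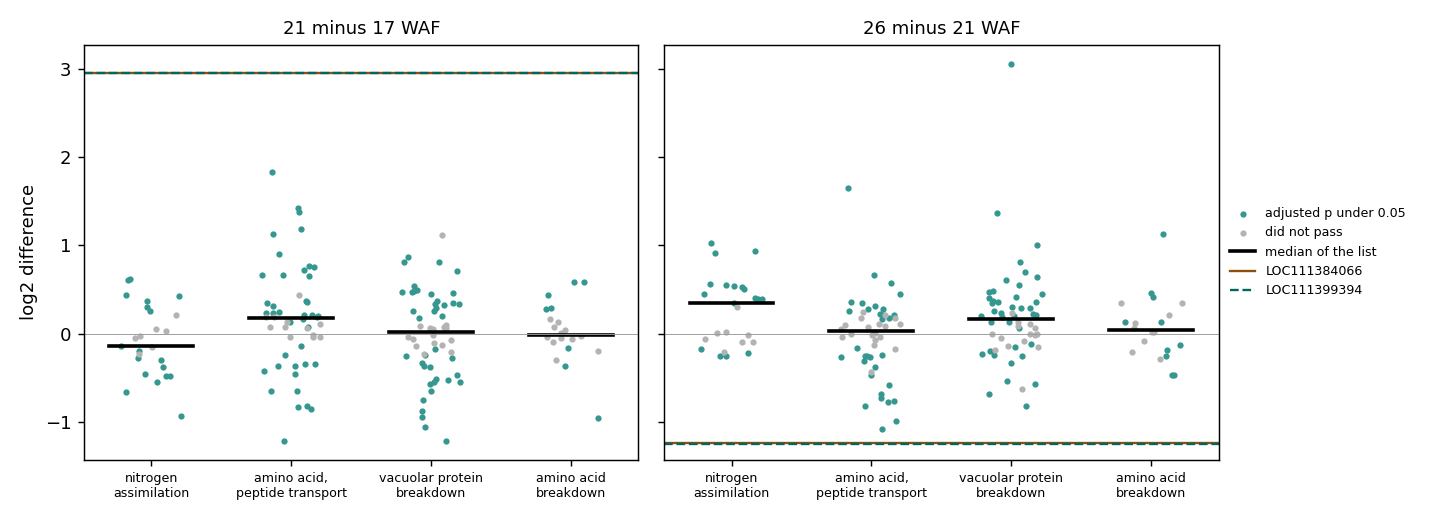
Log2 differences (log2(FPKM + 1) scale) of the tested genes of 4 lists between 21 and 17 WAF (left) and between 26 and 21 WAF (right). Each point is a gene, coloured where it passed an adjusted p of 0.05, and black bars are list medians. Horizontal lines mark LOC111384066 and LOC111399394, at 2.95 on the left and at -1.24 and -1.25 on the right. They lie above all genes of the 4 lists on the left and below all of them on the right.

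Lists for the cues known to act on bark storage genes in poplar were counted too. Of 40 tested genes of jasmonate and wounding, 17 (42.5%) rose and 17 (42.5%) fell between 17 and 21 WAF (median 0.011), beside 22.2% higher and 35.9% lower over all genes, and the number that fell was 11 without library A at 17 WAF and 10 with median-of-ratios scaling. Between 21 and 26 WAF 7 (17.5%) rose and 20 (50%) fell (median -0.18), beside 23.2% and 32.9%. The most abundant gene of this list, LOC111368523, described as wound-induced protein 1, stood at 312 ± 17.8 FPKM at 21 WAF and 308 ± 3.65 at 17 WAF (limma adjusted p = 0.774). The second most abundant, LOC111404294, a TIFY 10A gene of the family of jasmonate repressors, fell to 312 ± 8.79 FPKM at 21 WAF, against 408 ± 18.0 at 17 WAF (log2 change -0.39, SE 0.052, adjusted p = 3.43e-05). LOC111404976, a further gene described as wound-induced protein 1, had the largest rise of this list, to 11.1 ± 0.663 FPKM at 21 WAF, against 0.80 ± 0.204 at 17 WAF (log2 change 2.75, SE 0.111, limma adjusted p = 3.62e-10). Of 34 tested genes named for phytochrome, CONSTANS or flowering-time signals, which take part in day-length sensing, 7 (20.6%) rose and 16 (47.1%) fell in each of both intervals (medians -0.12 and -0.15). Over all genes 22.2% were higher and 35.9% lower in the first interval and 23.2% and 32.9% in the next, so the share that rose was near that of all genes. In the list of nucleosidases 4 genes were tested, of which LOC111377194 is described above and LOC111403407 is a deaminase caught by its name. Of the 4, 1 rose and 1 fell between 17 and 21 WAF (median 0.059), and 2 rose and 1 fell between 21 and 26 WAF (median 0.16). Between 17 and 21 WAF, 2 rose without library A at 21 WAF, and 0 fell without library C at 17 WAF, library B at 21 WAF or library C at 21 WAF. With median-of-ratios scaling 2 rose and 0 fell. With no filter, or with the abundant pair left out of the scaling sum, 0 fell.

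Marker lists were read beside the pair, and their counts stand against the same shares of all tested genes, 22.2% higher and 35.9% lower between 17 and 21 WAF (median -0.068) and 23.2% higher and 32.9% lower between 21 and 26 WAF (median -0.056). Phloem, 1 of the tissues that hold bark storage proteins in poplar, was covered by 17 genes, of which 1 was at 0 in all 12 libraries and 4 passed the filter. Their summed level was 37.8 to 38.0 FPKM at 17 WAF, then 40.9 to 42.5 at 21 WAF, then 28.3 to 29.6 at 26 WAF and lastly 16.7 to 17.4 at 30 WAF, highest at the same age as the pair. Most of this sum came from 1 gene, LOC111376838, at 31.5, 34.4, 23.6 and 8.81 FPKM at 17, 21, 26 and 30 WAF. The second most abundant, LOC111400219, was instead highest at 30 WAF, at 5.75 FPKM, against 4.72 at 21 WAF. Of the 4, 3 rose and 1 fell between 17 and 21 WAF (median 0.24), and 0 rose and 2 fell between 21 and 26 WAF (median -0.32). Between 17 and 21 WAF only 1 rose without library A at 17 WAF or library B at 21 WAF, and 0 fell without library A, B or C at 17 WAF. The most abundant, PHLOEM PROTEIN 2-LIKE A10 (LOC111376838), stood at 34.4 ± 0.720 FPKM at 21 WAF and 31.5 ± 0.492 at 17 WAF (log2 change 0.12, SE 0.047, limma adjusted p = 0.0448). That call ended without any 1 of the libraries at 17, 21 or 26 WAF (adjusted p = 0.0522 to 0.128), with no filter (0.0664), with a pseudocount of 0.1 (0.0543) and with each library scaled to the same sum (0.299). The part of phloem cells in the levels of the pair was not tested.

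Seed storage protein genes, 22 in the table with 4 at 0 throughout, summed to 188 to 192 FPKM at 17 WAF, then 136 to 140 at 21 WAF, then 124 to 125 at 26 WAF and lastly 107 to 112 at 30 WAF. Here too 1 gene, LOC111393661, made up most of the sum, at 133, 99.7, 84.7 and 64.7 FPKM at 17, 21, 26 and 30 WAF. Of 6 tested, 2 (33.3%) rose and 3 (50%) fell between 17 and 21 WAF (median -0.25), and 2 (33.3%) rose and 4 (66.7%) fell between 21 and 26 WAF (median -0.21). The number that rose between 21 and 26 WAF was 1 without library A, B or C at 17 WAF, A or C at 21 WAF, A or C at 26 WAF, or B at 30 WAF, and 1 with the replicate letter as a block. It was also 1 with a pseudocount of 0.1, with no filter, with only both ages fitted and with the abundant pair left out of the scaling sum. Genes of lignin and secondary walls, typical of the stone and of vessels, summed to 730 to 747 FPKM at 21 WAF and 758 to 795 at 17 WAF, with 8 of 77 at 0 throughout. At 26 WAF this sum was 678 to 703 FPKM, and at 30 WAF it was 1055 to 1061. Between these ages 1 gene of the list, LOC111410576, went from 269 to 639 FPKM, while the median log2 change of the tested genes was -0.0058. The higher sum at 30 WAF therefore does not give the course of the list as a whole. Of 24 tested, 7 (29.2%) rose and 12 (50%) fell between 17 and 21 WAF (median -0.12), and 10 (41.7%) rose and 10 (41.7%) fell between 21 and 26 WAF (median -0.031). Cuticle and wax genes of the epidermis summed to 1302 to 1328 FPKM at 21 WAF and 1587 to 1600 at 17 WAF, with 24 of 154 at 0 throughout. Their sum was 1127 to 1168 FPKM at 26 WAF and 2680 to 2693 at 30 WAF. Of 57 tested, 9 (15.8%) rose and 32 (56.1%) fell between 17 and 21 WAF (median -0.34), and 19 (33.3%) rose and 23 (40.4%) fell between 21 and 26 WAF (median -0.056).

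Genes of oil synthesis, a mark of olive mesocarp, were present at every age. They summed to 2698 to 2742 FPKM at 17 WAF, then 1921 to 1939 at 21 WAF, then 2546 to 2578 at 26 WAF and lastly 2361 to 2441 at 30 WAF, with 3 of 27 at 0 throughout. Their summed level was lowest at 21 WAF, the age at which LOC111384066 and LOC111399394 were highest. Most of this sum came from 1 gene, LOC111375456, at 1911, 1185, 1748 and 1567 FPKM at 17, 21, 26 and 30 WAF. The sum therefore does not give the course of the list as a whole. Of 13 tested, 6 (46.2%) rose and 5 (38.5%) fell between 17 and 21 WAF (median -0.068), and 6 (46.2%) rose and 4 (30.8%) fell between 21 and 26 WAF (median 0.0097). The last count was 2 without library C at 21 WAF, without library C at 26 WAF or with median-of-ratios scaling. The stearoyl-ACP desaturase gene LOC111375456 fell to 1185 FPKM at 21 WAF, against 1911 FPKM at 17 WAF (log2 change -0.69, limma adjusted p = 9.89e-11).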

How the data were processed

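Total RNA of 12 mesocarp samples was sequenced on a DNBseq platform, per the labels' protocols. The authors deposited 1 FPKM value for each gene in each library. Per the submitters' processing notes, their tools were RSEM, Bowtie2 2.2.5, HISAT2 2.0.4 and StringTie 1.0.4, whose roles are not described. No source used here gives the genome build, the annotation or whether strand was used, and coordinates are left out for that reason. All 37991 genes with a symbol matched the reference gene table by ID. Depth was not recoverable: the ratios between libraries of 7309 low genes did not gather at 1 step, with 7.08 to 13.4% of them within 0.1 (log2) of the commonest ratio.

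Genes with at least 1 FPKM in at least 3 libraries (26131) entered a limma 3.58.1 fit (R 4.3.3) of log2(FPKM + 1). The fit had a mean per age over all 12 libraries, 8 residual and 4.32 prior degrees of freedom, and a variance trend. P-values are 2-sided and Benjamini-Hochberg adjusted over all tested genes, with a threshold of 0.05. Log2 changes on this scale understate those of low genes. For LOC111384066 and LOC111399394 the SD of a log2 difference combines the variances of both ages. The genes studied and the 12 gene lists were chosen with earlier results of these data known. Named list genes are the 2 with the highest mean per list, and the largest rise and fall between neighbouring ages up to 26 WAF among those called with at least 5 FPKM in the higher age. Not all of them are described. The fit was tested on simulated data. The fit was repeated with a pseudocount of 0.1, without the filter, with a mean of at least 5 FPKM, with each library scaled to a sum of 1000000 (TPM), median-of-ratios scaling, both ages of a comparison alone, a block for the replicate letter, each library left out and, chosen after the data were seen, scaling without the abundant pair in the sum. Python 3.11.15, pandas 2.3.3 and matplotlib 3.10.9 were used.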

Additional observations from a re-analysis of the deposited data

How the results depend on the processing

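Neither the scalings nor leaving out single libraries turned the direction of LOC111384066 or LOC111399394 in any comparison. The other alternatives were not computed for this pair. Leaving out single libraries moved none of its differences beyond the replicate spread. Scaling did move them. For LOC111384066, each library scaled to the same sum gave log2 differences of 2.89 between 21 and 17 WAF, -2.01 between 30 and 26 WAF and -0.33 between 30 and 17 WAF. Median-of-ratios scaling gave 3.03, -1.16 (26 and 21 WAF), -2.07 and -0.21. Scaling without the pair in the sum gave -1.28 (26 and 21 WAF), -2.04 and -0.34. For LOC111399394, the same sum gave 2.89 between 21 and 17 WAF and -0.47 between 30 and 17 WAF. Median-of-ratios scaling gave 3.03, -1.17, -2.21 and -0.35, and scaling without the pair gave -2.18 between 30 and 26 WAF and -0.48 between 30 and 17 WAF.

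The share of higher genes among those called was 38.2% between 21 and 17 WAF, 41.3% between 26 and 21 WAF and 63.4% between 30 and 26 WAF. With median-of-ratios scaling it was 50.4%, 53.5% and 50.8%. List counts by direction therefore depend on scaling. With a mean of at least 5 FPKM, which tests fewer genes, 6568 genes were lower at 30 than at 17 WAF, against 10178. Asparagine synthetase (LOC111403662), at 0.0066 between 30 and 26 WAF (adjusted p = 0.822), was at -0.10 with median-of-ratios scaling (adjusted p = 0.00235) and at -0.071 with scaling without the pair (adjusted p = 0.0269). The cause was not tested.

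With the replicate block limma called 5722 genes higher and 9281 lower between 21 and 17 WAF, against 5808 and 9378 without it. Deviations of same-lettered libraries of different ages had correlations of -0.086 to 0.074, beside -0.148 to 0.15 for different letters. No effect shared by a letter was seen, but these values cannot tell whether a letter marks the same tree. Of the 5 other bark storage genes, 3 to 5 changed over the 4 ages across the alternatives that gave this test, which a fit of only both ages of a comparison did not. With a mean of at least 5 FPKM, LOC111405691 and LOC111387434 were not tested, as their means over all libraries were 2.195 and 1.45 FPKM.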

Other observations

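After LOC111384066 and LOC111399394, the most abundant gene at 21 WAF was LOC111398635, uncharacterized by its description. It stood at 4990 ± 130.1 FPKM at 17 WAF, then 10730 ± 688 at 21 WAF, then 4923 ± 328 at 26 WAF and lastly 2071 ± 28.5 at 30 WAF (SD, n = 3 each), so its highest age was that of the bark storage pair. LOC111398633, also uncharacterized, stood at 2233 ± 83.4 FPKM at 17 WAF, then 7119 ± 311 at 21 WAF, then 5610 ± 449 at 26 WAF and lastly 3833 ± 59.2 at 30 WAF. Neither was chosen by a rule, and both were picked after their values were seen.

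Apart from the 6 bark storage genes that carry it, the term "nucleoside metabolic process" is attached to 31 genes of the table. None of these reached more than 139.8 FPKM in any library.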
